A study of Mus musculus with 2 samples.

Results

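Mir139 is the mouse gene of the microRNA miR-139, and it lies within an intron of Pde2a on chromosome 7. It is 1 of the 2202 miRNA genes counted in the 2 libraries described here, and it was chosen by its measured abundance, as 1 of the genes with the most counts. Its level is therefore a description and no test was made of it. Each library is microRNA-seq of short RNA from hippocampal tissue of B6CASTF1/J females, the first-generation cross of C57BL/6J and CAST/EiJ, taken at 25 days of age. The labels name the tissue a layer of hippocampus without saying which layer, give no treatment or engineered allele, and number the libraries as biological replicates 1 and 2. Both list the same donor entry and different tissue samples, so it is not stated outright that they came from separate animals, and the spread between them may be partly technical. There is no second condition, so the only comparison is between the 2 libraries.

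A microRNA is cut from a hairpin in a longer transcript, first in the nucleus by Drosha and then in the cytoplasm by Dicer. One arm of the hairpin is loaded into an Argonaute protein and guides it to messenger RNAs that pair with the seed, the bases near its 5′ end, which lowers their translation and stability. Many microRNA genes lie in introns of protein-coding genes and can be made from the host's transcript. Pde2a encodes a phosphodiesterase that breaks down cAMP and cGMP, is stimulated by cGMP and is abundant in forebrain neurons, the hippocampus among them. In human tumours miR-139-5p is known mainly as a microRNA that is often reduced and that represses growth and migration genes such as IGF1R and ROCK2.

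The hairpin and the mature arms are shown because they carry what distinguishes these counts: where the reads come from, and whether they could have come from elsewhere. The sequences are from RefSeq (GRCm38.p6, the assembly also called mm10), on the plus strand of chromosome 7, written 5′ to 3′. The hairpin spans chr7:101475376-101475443, the 5p arm chr7:101475382-101475403 and the 3p arm chr7:101475418-101475439. In the hairpin the capitals mark the 2 arms. In the mature sequences they mark the seed, bases 2 to 8.
Mir139 hairpin: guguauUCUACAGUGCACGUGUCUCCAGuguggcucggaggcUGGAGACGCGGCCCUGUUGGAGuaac
miR-139-5p: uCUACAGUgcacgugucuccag
miR-139-3p: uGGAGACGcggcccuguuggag
miR-6397: uGGAGACUuucaguggaguga
The seed of miR-139-5p was shared with none of the other mature sequences among the 1738 in the RefSeq table. The seed of miR-139-3p was shared with none either, and miR-6397, shown for that reason, matched it over bases 2 to 7. Mir6397, on chromosome 4, had a count of 0 in both libraries, which allows up to 0.547 CPM in replicate 1 and 0.703 CPM in replicate 2 (3 counts per library). CPM are counts per 1000000 counts in the miRNA gene rows of a library. Mir139 thus stood alone in its seed group.

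The gene record is ENSMUSG00000065446.1, 68 bases long. Its GENCODE M21 sequence was identical to the RefSeq hairpin. It lies 53685 bases after the start of Pde2a (ENSMUSG00000110195.1, chromosome 7 from 101421691 to 101512827, plus strand) and is read in the same direction. In Pde2a-201 it falls in intron 2 of a transcript with 31 exons. That intron is 29902 bases long, and the hairpin sits 23907 bases after exon 2 and 5927 bases before exon 3. All 4 protein-coding transcripts of Pde2a have the hairpin in this intron, and 10 of the 12 annotated transcripts carry it in an intron. A further protein-coding record, Gm45837, covers the same stretch on the same strand and also has the hairpin in an intron.

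**Figure D1:**
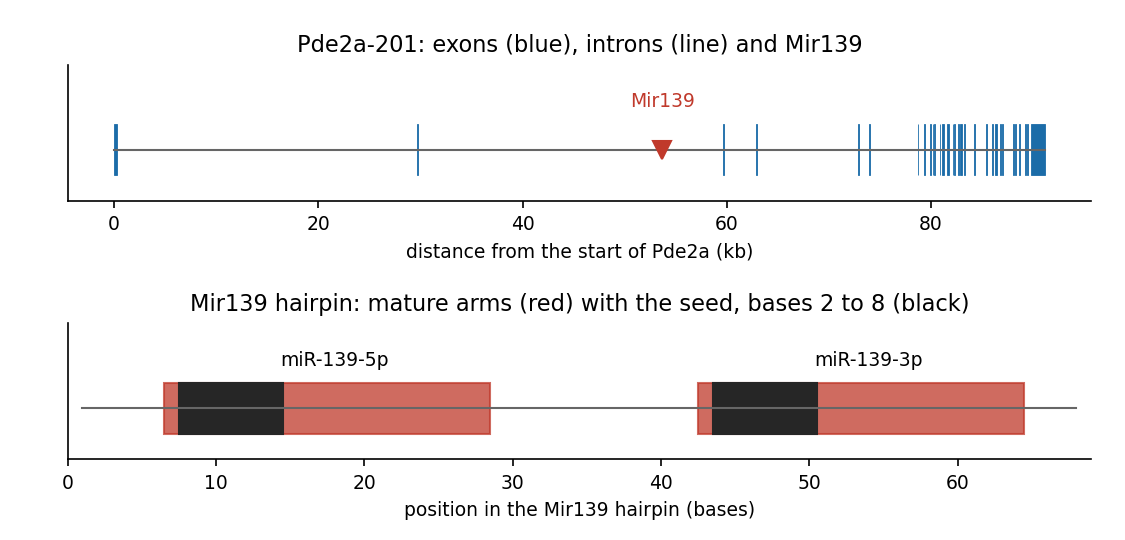
Upper panel: exons of Pde2a-201 (bars) and introns (line) by distance in kb from the start of Pde2a, with Mir139 marked 53685 bases from that start, in the second intron. Lower panel: the 68-base hairpin, with the 5p and 3p arms and their seeds (bases 2 to 8 of each arm) by position in bases.

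The hairpin was short and stable for its length. Folded with RNAfold, it had a minimum free energy of -35.6 kcal/mol, against a median of -35.1 kcal/mol over the 371 detected genes with a RefSeq hairpin. A gene is called detected where both libraries reach 2 CPM. Its 68 bases compare with a median of 81 bases, so that per base its energy was -0.524 kcal/mol, against a median of -0.434, and 56 of the 371 hairpins were lower. Its GC content was 58.8%, against a median of 52.2%. The predicted fold pairs 20 of the 22 bases of each arm. These are sequence properties computed without the counts.

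The 2 libraries held 5481053 counts in miRNA genes in replicate 1 and 4266963 in replicate 2, which were 35.4% and 31.2% of the reads their tables account for. Reads that match several places, 41.9% and 46.4%, enter no gene count. Of the 2202 genes, 433 were detected, and 114 of these had a mean of at least 1000 CPM. Of the neuron list, 18 of 21 genes were detected, with summed levels of 63044 CPM in replicate 1 and 85876 CPM in replicate 2. The lists of other cell types, given below, were detected about as fully, so detection alone does not identify the tissue. Not detected were Mir124a-2, Mir124a-3 and Mir9-2, and Mir124a-1 was low, at 3.28 CPM in replicate 1 and 4.69 CPM in replicate 2. Each of these genes shares at least 22 bases with other loci, so its count is uncertain. Lists of other cell types were also present and differed between the libraries: the summed level of the epithelial list (5 of 6 detected) was 74.8 CPM in replicate 1 and 5837 CPM in replicate 2, and that of the oligodendrocyte list (3 of 3) 6503 and 939 CPM. The oligodendrocyte list did not move as 1: Mir219a-2 had 4960 CPM in replicate 1 and 119 CPM in replicate 2 and made up most of the sum, while Mir219a-1 had 12.4 and 54.8 CPM. The microglia and immune list (5 of 6) had 1990 and 1101 CPM. That difference rested mainly on Mir150 (1215 CPM in replicate 1 and 397 CPM in replicate 2), while Mir146 had 681 and 500 CPM. Of its 5 detected genes, 3 were at least 2-fold lower in replicate 1, against 113 of all 433 detected genes. With edgeR TMM library sizes it was 1 of the 5, against 79 of the 433. The endothelial and mural list (3 of 3) had 21958 and 12895 CPM, the choroid plexus and ciliated list (4 of 4) 981 and 2302 CPM, and the erythroid list (3 of 3) 88.1 and 65.9 CPM. Mir126a (18708 and 9834 CPM) made up most of the endothelial and mural sums, while Mir143 was about level (3099 and 2947 CPM). In the choroid plexus and ciliated list Mir449a had 101 and 1139 CPM, and the other 3 genes were within 2-fold. The epithelial list was led by Mir200c, Mir429 and Mir200b, and the oligodendrocyte list by Mir219a-2, Mir338 and Mir219a-1. None of the genes in these 7 lists was at 0 in either library. In such bulk tissue, fewer cells of a type and less RNA per cell cannot be told apart.

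Mir139 had 525236 counts in replicate 1 and 162458 counts in replicate 2. These were 95828 CPM in replicate 1 and 38073 CPM in replicate 2, or 66951 ± 40838 CPM (SD, n = 2). Mir139 alone took 9.58% of the miRNA gene counts of replicate 1 (exact Clopper-Pearson 95% interval 9.56 to 9.61) and 3.81% of those of replicate 2 (3.79 to 3.83). Of all reads the tables account for, it took 3.39% in replicate 1 and 1.19% in replicate 2. The gene was among the highest in both libraries, yet its share was larger in replicate 1, with intervals far apart. Such intervals cover counting error only, and counting error is small beside the spread between the libraries. They treat each read as independent, so they are too narrow if reads copied from 1 molecule by PCR were counted separately. Whether such copies were removed is not stated. The counts are per gene, so the 5p and 3p arms cannot be told apart.

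Every count of Mir139 was on the main strand: the opposite-strand column held 0 in both libraries, and the column read as the count without strand held the same 525236 and 162458. No other miRNA gene shared 22 identical bases with it, and the longest stretch it shared with a miRNA gene at another locus was 11 bases, with Mir6352. Among the 25 genes with the highest mean CPM that longest stretch ran from 11 bases to 23 bases. It was 19 bases for each of Mirlet7b, Mirlet7g and Mirlet7i. A search of 141767 GENCODE M21 transcripts, both strands, found neither arm in any other gene, with 0 or 1 mismatch. A search of the whole genome was not made here. How reads of the CAST/EiJ allele were placed was not analysed here.

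By mean CPM Mir139 ranked 4, but its order against its neighbours depends on the library. In replicate 1 it ranked 2, below Mirlet7b (99521 CPM) and above Mir127 (71805 CPM), Mirlet7g (57503 CPM) and Mirlet7i (45686 CPM). In replicate 2 it ranked 4, below Mirlet7i (94010 CPM), Mirlet7b (83732 CPM) and Mirlet7g (82569 CPM) and just above Mir744 (35575 CPM), Mir149 (32894 CPM) and Mir99a (30274 CPM). The let-7 genes belong to a family that rises as cells differentiate, and Mir127 is an imprinted gene transcribed antisense to Rtl1. By mean, Mirlet7b at 91626 ± 11165 CPM, Mirlet7g at 70036 ± 17724 CPM, Mirlet7i at 69848 ± 34170 CPM and Mir127 at 46155 ± 36275 CPM (SD, n = 2 each) all lay closer to Mir139 than its own SD. Mir139 was above Mirlet7g and Mirlet7i in replicate 1 and below both in replicate 2, so its order against these genes is not resolved. It was below Mirlet7b and above Mir127 in each library. Mir744 at 33228 ± 3320 CPM and Mir99a at 31640 ± 1932 CPM also lay within that SD of Mir139, although Mir139 was higher than both in each library. Reads that match several places are left out, so the levels of miRNAs with copies are undercounted in these ranks.

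**Figure D2:**
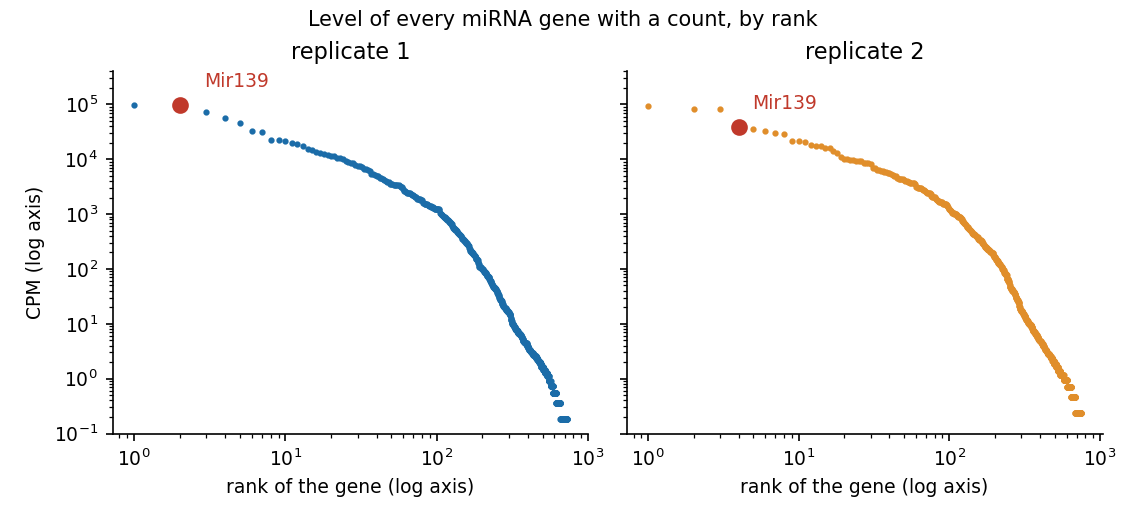
CPM of every miRNA gene with at least 1 count (log axis) against its rank in that library (log axis), with replicate 1 on the left and replicate 2 on the right. Mir139 ranks 2 in replicate 1 and 4 in replicate 2, on the flat start of both curves.

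Set against the other 9 of the 10 most abundant genes within the same library, Mir139 was relatively higher in replicate 1 in 8 of 9 cases, a comparison that no scaling of the libraries can change. These cases restate the log2 ratio of Mir139 against those of the other genes and are not separate support. Of all other detected genes, 88.7% likewise had a lower log2 ratio than Mir139. The count of Mir139 was 0.963 times that of Mirlet7b in replicate 1 and 0.455 times in replicate 2. It was 2.10 times that of Mirlet7i in replicate 1 and 0.405 times in replicate 2, so that these genes exchanged their order. The quotient with Mir149, which lies in an intron of Gpc1, was 7.09 in replicate 1 and 1.16 in replicate 2, the widest gap of the 9. Mir127 was the exception, with a quotient of 1.33 in replicate 1 and 1.86 in replicate 2. Over the 9 genes the log2 of the replicate 1 quotient over the replicate 2 quotient had a median of 1.54, with a lowest value of -0.48 and a highest of 2.62.

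**Figure D3:**
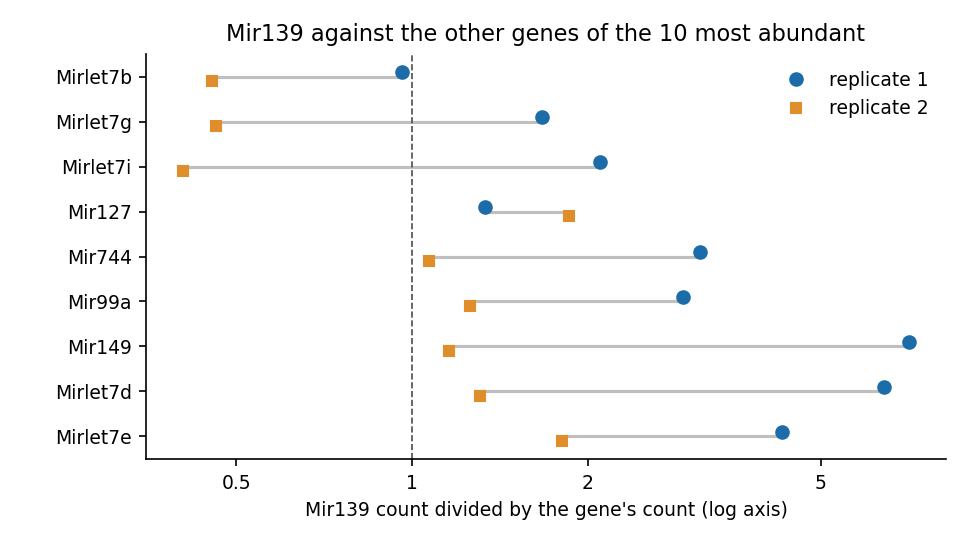
Count of Mir139 divided by the count of each of the other 9 of the 10 most abundant genes (log axis), in replicate 1 (circles) and replicate 2 (squares), with the dashed line at equal counts. The replicate 1 value lies to the right for 8 genes, and for Mir127 to the left (1.33 in replicate 1 and 1.86 in replicate 2).

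Between the libraries Mir139 was 2.52-fold higher in replicate 1 (exact 95% interval from the counts 2.50 to 2.53), a log2 ratio of 1.33 on the log2(CPM + 1) scale. With 1 library on each side there is no replicate check of this difference, and it compares these libraries, not conditions. A gap of this size was common. Of the 433 detected genes, 177 (40.9%) were at least 2-fold apart, and 64 (14.8%) were at least 2-fold higher in replicate 1. Among the 114 genes with a mean of at least 1000 CPM, 55 (48.2%) were at least 2-fold apart and 25 (21.9%) at least 2-fold higher in replicate 1. By the size of its log2 ratio in either direction, Mir139 ranked 128 of the 433 detected genes and 40 of those 114. Among the 25 most abundant genes it ranked 5. The marker lists whose summed levels differed between the libraries, in part through single genes such as Mir219a-2 and Mir150, are given above, and their part in the Mir139 difference was not tested.

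The direction held with every scaling, while its size and its background did not. The median log2 ratio of the detected genes was -0.27, so Mir139 lay 1.60 above it. With edgeR TMM library sizes that median shifted up by 0.31, the log2 ratio of Mir139 became 1.69, and Mir139 lay 1.65 above the median. The 2-fold genes divided into 64 higher in replicate 1 and 113 lower with the gene totals, and into 91 and 79 with TMM or with DESeq2 size factors. With all reads of the tables as library size the log2 ratio of Mir139 was 1.51. Because Mir139 itself took a large part of replicate 1, it also lowered the other genes' CPM there: without its counts in the total, every other gene's log2 ratio of CPM is 0.09 higher.

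**Figure D4:**
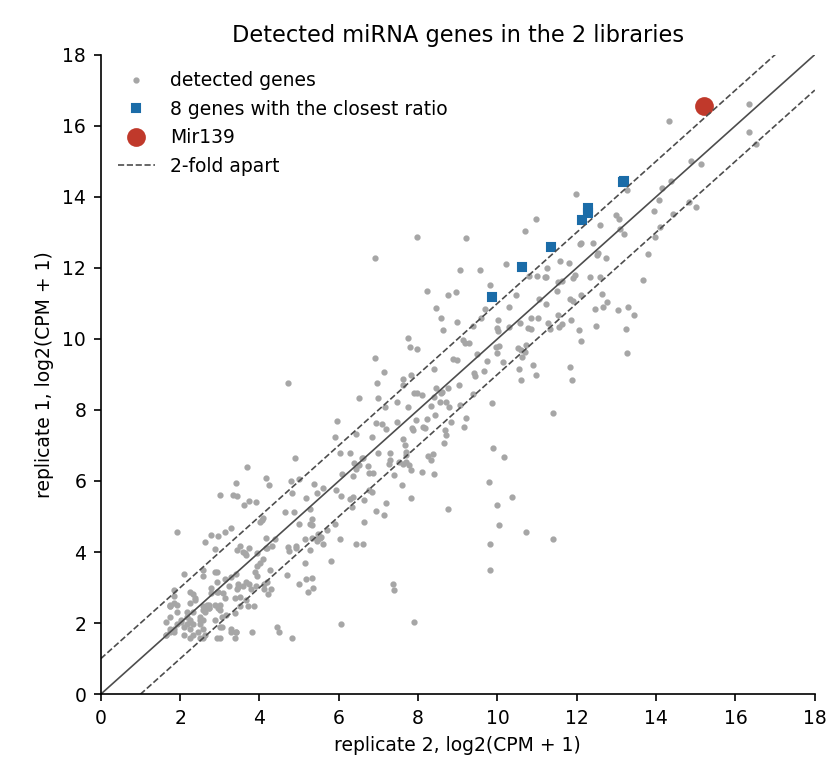
Level of each of the 433 detected genes, log2(CPM + 1), in replicate 1 (vertical) against replicate 2 (horizontal). The solid line marks equal levels and the dashed lines 2-fold. Mir139 and the 8 genes with the closest log2 ratio lie just above the upper dashed line.

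The likeness of other genes to Mir139 can be measured over 2 libraries only, as the distance between log2 ratios among genes with a mean of at least 1000 CPM. The closest were Mir671 (log2 ratio 1.33, in an exon of Chpf2), Mir674 (1.40), Mir138-1 (1.26) and Mir23b (1.26). Next were Mir22 (1.25), Mir92b (1.41), Mir99b (1.24) and Mir330 (1.20, in an exon of Eml2). Their levels ranged widely, from 2336 CPM in replicate 1 and 926 CPM in replicate 2 for Mir671 to 22191 and 9382 CPM for Mir99b. Mir138-1, whose product limits dendritic spine size in rat neurons, shares at least 22 bases with a copy at another locus, so its count is uncertain. With 2 libraries many genes have a like ratio, and nothing about function or control follows from it.

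Mir139 was 1 of 733 genes that lie in an intron of a protein-coding gene on the same strand. Of these, 183 were detected (25.0%), against 57 of 236 (24.2%) that overlap an exon and 193 of 1233 (15.7%) outside such genes. The median mean level of the detected intronic genes was 38.3 CPM (quartiles 6.73 and 596 CPM). Mir139 was thus far above the usual level of its class, ranking 1 of the intronic genes in replicate 1 and 2 in replicate 2, where Mirlet7g in Wdr82 was higher. Since Mir139 was chosen for its abundance, this place is a description. Mir139 held 25.6% of all counts of intronic genes in replicate 1 and 9.62% in replicate 2. The intronic class as a whole held 37.4% of the miRNA gene counts in replicate 1 and 39.6% in replicate 2. Of the 183 detected intronic genes, 19 were at least 2-fold higher in replicate 1 and 49 at least 2-fold lower. Over all 433 detected genes these counts were 64 and 113. The intronic median log2 ratio was -0.42, against -0.27 over all detected genes. With TMM the intronic counts were 31 and 38, against 91 and 79 over all detected genes. The intronic median was then -0.08, against 0.07 over the same 433 genes. By log2 ratio Mir139 ranked 13 of the 183.

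Among 17 listed miRNA genes in introns of neuronal or signalling genes, Mir139 was the highest in both libraries. Mir139 was chosen for its abundance, so its place in the list is a description. Each of the 17 was found in an intron of its host in GENCODE M21, and 16 were detected. The list is a selection and leaves out other intronic genes. Among these is Mir744 in Map2k4, with 30880 CPM in replicate 1 and 35575 CPM in replicate 2. Apart from Mir139, the most abundant of the list was Mir149, in Gpc1, a heparan sulphate proteoglycan gene, with 13509 CPM in replicate 1 and 32894 CPM in replicate 2. Next was Mir128-1, in R3hdm1, with 11606 and 21819 CPM. Mir128-2, in Arpp21, a gene for a cAMP-regulated phosphoprotein, had 2470 CPM in replicate 1 and 6393 CPM in replicate 2. The level of Mir139 was 0.734 of the summed level of the list, Mir139 included, in replicate 1 and 0.356 of it in replicate 2.

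The members of that list did not move together. At least 2-fold higher in replicate 1 were 4 of the 16 and at least 2-fold lower 4, against 64 and 113 of all 433 detected genes. The median log2 ratio of the list was -0.48, against -0.27 over all detected genes. With TMM that list median was -0.13, against 0.07 over the same 433 genes. Besides Mir139, the genes at least 2-fold higher in replicate 1 were Mir346, in the glutamate receptor gene Grid1, with 2597 CPM in replicate 1 and 298 CPM in replicate 2, and Mir218-2 (206 and 61.4 CPM) and Mir218-1 (22.6 and 7.73 CPM), in the axon guidance genes Slit3 and Slit2. At least 2-fold lower in replicate 1 were Mir149 (log2 ratio -1.28), Mir128-2 (-1.37), Mir153 in Ptprn2 (-1.73) and Mir708 in Tenm4 (-2.16). With TMM, Mir149 was within 2-fold (-0.92). Mir338, in Aatk and known for its role in oligodendrocytes, had 1530 CPM in replicate 1 and 765 CPM in replicate 2, a fold of 2.00. On the log2(CPM + 1) scale it fell just under the 2-fold cut-off, and it passed with TMM. Mir128-1, Mir128-2, Mir708, Mir218-1 and Mir218-2 each share at least 22 bases with another locus, so their counts are uncertain.

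Besides Mir128-1 and Mir338, the detected genes left within 2-fold ranged widely in level. Mir204 in Trpm3, Mir326 in Arrb1, Mir488 in Astn1 and Mir1298 in the serotonin receptor gene Htr2c had 660, 695, 267 and 112 CPM in replicate 1 and 858, 469, 436 and 207 CPM in replicate 2. Also within Htr2c, Mir1264 had 16.6 CPM in replicate 1 and 25.3 CPM in replicate 2, and Mir448 had 16.2 and 16.9 CPM, with a log2 ratio of -0.05 that turned to 0.29 with TMM. Mir1912 was not detected, with 0 counts in replicate 1 and 2 counts in replicate 2.

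**Figure D5:**
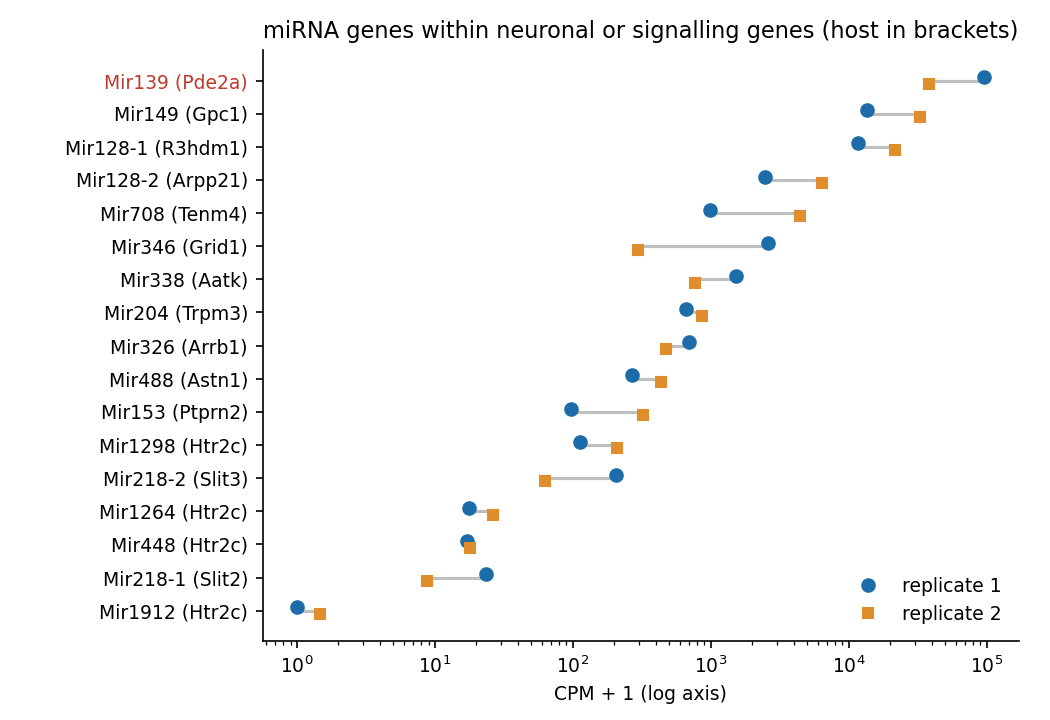
CPM + 1 (log axis) of the 17 miRNA genes in introns of neuronal or signalling genes, ordered by mean CPM, in replicate 1 (circles) and replicate 2 (squares). Mir139 is highest in both libraries, and the lines run in both directions down the list.

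Measured against the neuron list, Mir139 alone had 1.52 times the summed level of its 21 genes in replicate 1 and 0.443 times in replicate 2. That list holds Mir132, which is induced by neuronal activity, with 17142 CPM in replicate 1 and 4038 CPM in replicate 2, and Mir137, a regulator of neuronal maturation, with 5321 and 14089 CPM. Of its 18 detected genes, 8 were at least 2-fold higher in replicate 1 and 7 at least 2-fold lower, or 8 and 4 with TMM. Over all 433 detected genes these counts were 64 and 113, or 91 and 79 with TMM. The median log2 ratio of the list was -0.56, against -0.27 over all detected genes. Of the 21 genes 14 share at least 22 bases with another locus, so their sum is an undercount.

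Within 5000000 bases of Mir139 on either side on chromosome 7 lie 7 other miRNA genes. Of these, 2 were detected, against 433 of all 2202 (19.7%), and 5 had no count in either library. Each of these 5 shares at least 22 bases with other loci, from 35 to 100 of them, and reads that match several places are not counted, so their 0 does not show that they were absent. The nearest detected gene was Mir3102, 592967 bases before it and overlapping an exon of Arhgef17, with 840.0 CPM in replicate 1 and 249.8 CPM in replicate 2 (log2 ratio 1.75). Mir326, 1923013 bases before it, was at 695 CPM in replicate 1 and 469 CPM in replicate 2 (0.57). Both were higher in replicate 1, as Mir139 was, also with TMM, DESeq2 size factors and all reads as library size. Of all 433 detected genes, 170 were higher in replicate 1, or 221 with TMM. Of all counts on chromosome 7, which has 153 miRNA genes in the table and 28 detected, Mir139 held 84.1% in replicate 1 and 73.8% in replicate 2. This share too describes a gene chosen for its abundance.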

How the data were processed

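The authors deposited a headerless table of raw counts for each library. Text deposited with them names mm10 as the assembly and M21 as the annotation. The aligner, trimming and counting rules were not found in the labels or that text. The value columns carry no names, and from their values the first was read as counts without strand, the second as the main strand, used here, and the third as the opposite strand. The 4 rows that name no gene (unmapped reads 17.1% and 17.2%, several places 41.9% and 46.4%, outside miRNA genes 5.56% and 5.17%, in replicates 1 and 2, and reads in more than 1 gene) stayed out of library sizes.

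From the counts, CPM over the 2202 gene rows, ranks, log2 ratios of CPM + 1 (replicate 1 over replicate 2) and folds with exact 95% intervals were computed (Python 3.11.15, scipy 1.17.1). The 2-fold rule and the intervals were tested on simulated data that held counting error only. That test therefore says nothing about the spread between real libraries. TMM and size factors came from edgeR 4.0.16 and DESeq2 1.42.0 (R 4.3.3), and folding from RNAfold 2.7.2. Symbols and positions are from GENCODE M21, and all 2202 gene identifiers matched. Arms were searched in transcripts, with no genome used here.

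With 1 group there is no test between conditions. The gene and the lists were chosen with earlier results of these data known. Genes named are Mir139, its neighbours by level (up to 5 by mean and 3 per library on each side), the 8 closest log2 ratios, the neuronal-host list, detected neighbours on the chromosome, and the 3 highest of the neuron, oligodendrocyte and epithelial lists. Mir137 was chosen after its values were seen. The other marker lists are given as sums, with some members named after their values were seen. Alternatives were other library sizes, the column without strand, other filters, no added value, genes without copies and each library alone.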

Additional observations from a re-analysis of the deposited data

How the results depend on the processing

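Mir139 was higher in replicate 1 under every library size and column tried. Its log2 ratio, 1.33 as reported, was 1.69 with edgeR TMM, 1.69 with DESeq2 size factors, 1.51 with all reads of the tables as library size, 1.42 without Mir139 in the total and 1.36 from counts without strand. Its mean level was 22910 CPM with all reads as library size, a larger denominator. Its rank by mean, 4 as reported, was 2 with TMM and 2 with DESeq2 size factors. From each library alone (without replicate 1 or without replicate 2) the rank was 4 and 2, and the level 38073 and 95828 CPM. The count of genes at least 2-fold apart was 177 as reported and 273 with every gene that had at least 1 count in either library, where 820 genes were tested in place of 433. The other 31 of 41 values stayed within the spread or within 1.5 times, and none reversed. No paired analysis was possible because there is 1 group. Depth does not limit Mir139, whose interval is narrow; the number of libraries does.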

Other observations

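The seed letters of miR-139 also occur outside the seed position in a few other mature miRNAs. CUACAGU, the seed of miR-139-5p, starts at base 11 of miR-3086-3p, whose gene Mir3086 had 125 counts in replicate 1 and 12 in replicate 2. GGAGACG, the seed of miR-139-3p, lies within miR-3474 from base 9, miR-7078-5p from base 12 and miR-5114 from base 4. Their genes had 19, 1 and 6 counts in replicate 1 and 31, 0 and 2 counts in replicate 2. All of these stood far below Mir139, which had 525236 and 162458 counts.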
